A study of Mus musculus with 18 samples.

Results

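The interferon-inducible GTPases described here are 10 mouse genes, Igtp, Irgm1, Irgm2, Iigp1, Tgtp1, Ifi47, Gm12250, Gbp2, Gbp3 and Gbp9, measured in the glomerular cells of Cd2ap mutant and wild type mice. They were chosen by name, from the gene symbol of each row of the deposited array table, and for a gene with several rows the row of highest mean signal was taken. The table holds 28856 transcript clusters (probe sets that sum the probes of 1 transcript region), of which 25254 carry a gene symbol. The 10 genes occupy 9 clusters, because Igtp and Irgm2 share 1 cluster and their signals cannot be told apart. Tgtp1 shares its cluster with Tgtp2 and Gm12185, and Ifi47 shares its cluster with the olfactory receptor gene Olfr56. The other 6 clusters carry a single symbol each, and all counts below are over the 9 clusters.

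The arrays compared mice that lack Cd2ap, a model of focal segmental glomerulosclerosis, with wild type mice at 5 weeks of age. Glomeruli were isolated and dissociated, and GFP positive cells were sorted from mice that carried a Meis1-GFP transgene for mesangial cells, a Tie2-GFP transgene for endothelial cells or another GFP transgene for podocytes. Mutants (CD2AP-/- in the labels, the Cd2ap tm1Shaw allele on a B6.129X1 stock) and wild types of 1 cell type therefore share the same reporter. There were 18 arrays in 6 groups of 3, described by the submitters as biological triplicates, and arrays are called A, B and C within a group only to name them. The wild type mesangial columns of the table carry a "+:-" mark, which reads as heterozygous, and their titles say control, while their genotype record says wildtype and the controls of the other cell types are marked as +/+. They are called wild type here, and a difference in genotype cannot be told apart from cell type where these controls are compared with those of other cells. The probes on the array did not show a loss of Cd2ap: its signal was 1478 to 1512 in mutant and 1546 to 2108 in wild type podocytes, 797 to 870.4 against 922 to 1123 in mesangial cells, and 891 to 966 against 757 to 859 in endothelial cells, so that every direction below rests on the labels. Which part of the transcript these probes cover was not tested.

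Interferon-inducible GTPases are among the genes that cells switch on most strongly when interferon gamma, and to a lesser degree type I interferon, reaches its receptor. The immunity-related GTPases (IRG) fall into regulatory members, which guard the cell's own membranes, and effector members, which load onto the vacuoles of intracellular pathogens. The guanylate-binding proteins (GBP) are larger relatives that assemble on the same targets. Igtp (also called Irgm3), Irgm1 and Irgm2 are regulatory IRGs, Iigp1 (Irga6), Tgtp1 (Irgb6), Ifi47 (Irgd) and Gm12250 (Irgb10) are effector IRGs, and Gbp2, Gbp3 and Gbp9 are GBPs. Interferon gamma acts through JAK kinases on genes that carry the gamma-activated site (GAS), whereas type I interferon acts, with STAT2 and IRF9 taking part, on the interferon-stimulated response element (ISRE).

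The promoters are shown for their matches to these 2 elements, which 4 of the 10 genes carry together. RefSeq promoters of build GRCm38.p6, from 250 bases before to 50 bases after a start site, were found for 8 of the 10 genes, in 9 windows. Both strands were searched for GAS as TTCNNNGAA and for ISRE as GAAANNGAAA. An ISRE match was present in 7 of the 8 genes, all but Ifi47, and in 3.44% of 32851 promoters of the same length. A GAS match was present in 4 of the 8, Igtp, Irgm2, Tgtp1 and Gm12250, and in 8.3% of all promoters. The 100 bases before the start site are printed 5′ to 3′ on the gene's strand for the 7 genes with a match, with GAS and ISRE letters in capitals, beginning with the 3 that have GAS and ISRE side by side.
Igtp (chr11:58199456-58199555, plus strand): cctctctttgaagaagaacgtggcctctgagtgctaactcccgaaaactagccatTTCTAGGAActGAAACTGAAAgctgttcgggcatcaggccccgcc
Irgm2 (chr11:58214877-58214976, plus strand): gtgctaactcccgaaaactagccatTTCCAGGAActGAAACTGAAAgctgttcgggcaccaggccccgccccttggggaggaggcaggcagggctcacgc
Tgtp1 (chr11:48992247-48992346, minus strand): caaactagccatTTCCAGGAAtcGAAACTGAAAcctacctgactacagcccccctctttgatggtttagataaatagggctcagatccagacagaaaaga
Gm12250 (chr11:58183743-58183842, plus strand): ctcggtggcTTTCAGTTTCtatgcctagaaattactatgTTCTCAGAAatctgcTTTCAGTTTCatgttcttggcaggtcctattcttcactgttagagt
Irgm1 (chr11:48871421-48871520, minus strand): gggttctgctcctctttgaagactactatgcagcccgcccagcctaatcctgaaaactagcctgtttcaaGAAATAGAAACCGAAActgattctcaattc
Gbp2 (chr3:142620563-142620662, plus strand): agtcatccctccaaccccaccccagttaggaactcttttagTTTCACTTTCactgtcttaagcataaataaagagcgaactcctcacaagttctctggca
Gbp3 (chr3:142559944-142560043, plus strand): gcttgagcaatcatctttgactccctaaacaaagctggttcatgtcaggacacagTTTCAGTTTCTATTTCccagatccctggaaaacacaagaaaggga

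In Igtp, Irgm2 and Tgtp1 the GAS match was followed after 2 bases by the same ISRE letters, GAAACTGAAA. A search made after these matches had been seen found this arrangement, a GAS match with an ISRE match 2 bases after it, in 5 of the 32851 promoters (0.0152%). These 5 were Igtp, Irgm2, Tgtp1, Tgtp2 and Gm12185, the genes of 2 of the 9 clusters. In Irgm1 and Gbp3 a pair of ISRE matches overlapped, and Gm12250 held 2 separate ISRE matches with the GAS match between them. Gbp3 has a second window, without a match. The element map by distance from the start site shows all matches between 91 and 15 bases before it. A letter match is a description of the sequence and was not tested as a binding site.

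**Figure D1:**
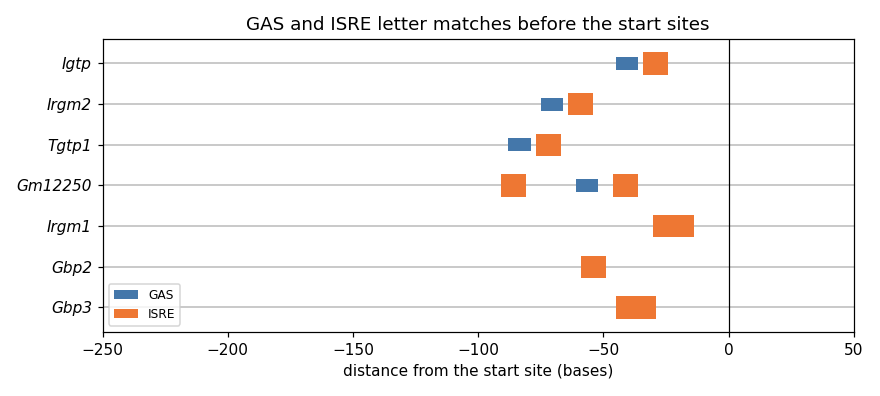
Positions of GAS (blue) and ISRE (orange) letter matches, in bases from the start site, in the RefSeq promoters of the 7 GTPase genes with a match (for Gbp3, the window with a match). In Igtp, Irgm2 and Tgtp1 the GAS match lies 2 bases before the ISRE match.

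In endothelial cells the signal of all 9 clusters rose in the mutant, from 1.75-fold for Gbp9 to 3.54-fold for Gbp3 in 8 of them. The remaining cluster, Gm12250, passed the signal minimum only through its mutant arrays, and no size is given for it. A rise means here, following the screen in the study's methods, an unadjusted p under 0.05 in limma's moderated test and a fold change over 1.5, for clusters that reached a signal of 100 in 1 or more of the 6 arrays. The same screen called 2.96% of the 11330 clusters tested in endothelial cells as higher. With Benjamini-Hochberg adjustment over all clusters tested, 6 of the 9 had an adjusted p under 0.05 (5 of the 8 without Gm12250), against 1.21% of all clusters in this direction. This adjusted count was 4 in 1 fit of all 18 arrays and 2 with no signal minimum. It was 3 without mutant array A, 3 without wild type array B and 2 without wild type array C, and the cluster of Igtp and Irgm2 passed in every alternative run. In all 9 the lowest mutant array exceeded the highest wild type array, which held for 17.7% of all clusters tested. The median log2 fold change was 1.63 over the 9 clusters, 1.55 over the 8 without Gm12250 and 0.07 over all clusters tested.

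Among the regulatory IRGs, the shared cluster of Igtp and Irgm2 had signals of 827, 1334 and 787 in the mutant endothelial arrays and of 312, 252 and 286 in the wild type ones. The lowest mutant array was thus well over the highest wild type array, and the log2 fold change was 1.76 ± 0.20 (SE, limma adjusted p = 0.00834, n = 3 against 3). Irgm1, which controls the activity of the effector IRGs, had 435, 719 and 479 in mutant and 265, 228 and 145 in wild type cells. Its log2 fold change was 1.37 ± 0.26 (SE), with a limma adjusted p of 0.0524.

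Gm12250, an effector, was near background in the wild type. Its signals were 318, 425 and 236 in the mutant endothelial arrays and 66.7, 70.7 and 72.5 in the wild type arrays. Because all 3 wild type values lay under the minimum of 100, this gene entered the test only through its mutant arrays. The other effector IRGs moved the same way. Iigp1, a vacuole-loading effector, gave 1245, 1945 and 1187 in mutant against 557, 342 and 422 in wild type cells (log2 fold change 1.72 ± 0.23 SE, limma adjusted p = 0.0139). Tgtp1 gave 1381, 2583 and 1390.5 against 875, 523 and 364, with a limma adjusted p of 0.0717 at a log2 fold change of 1.63 ± 0.35 (SE). Ifi47 gave 247, 379.9 and 203 against 107, 95.7 and 88.3 (log2 fold change 1.46 ± 0.21 SE, limma adjusted p = 0.0189).

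The GBPs rose as well. Gbp2, one of the GBPs that attack pathogen vacuoles, had signals of 331, 374.5 and 328 in mutant and 190.5, 112 and 103 in wild type endothelial cells (log2 fold change 1.40 ± 0.22 SE, limma adjusted p = 0.0245). Gbp3 had 336, 419 and 310.1 against 149, 76.6 and 86.4 (log2 fold change 1.82 ± 0.24 SE, limma adjusted p = 0.0137). Gbp9 moved least, with 838, 1492 and 1426 against 697, 779.9 and 610.1, a log2 fold change of 0.81 ± 0.22 (SE) and a limma adjusted p of 0.130. Gbp9 was also the member whose call was lost when all 18 arrays shared 1 fit (limma adjusted p = 0.474).

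**Figure D2:**
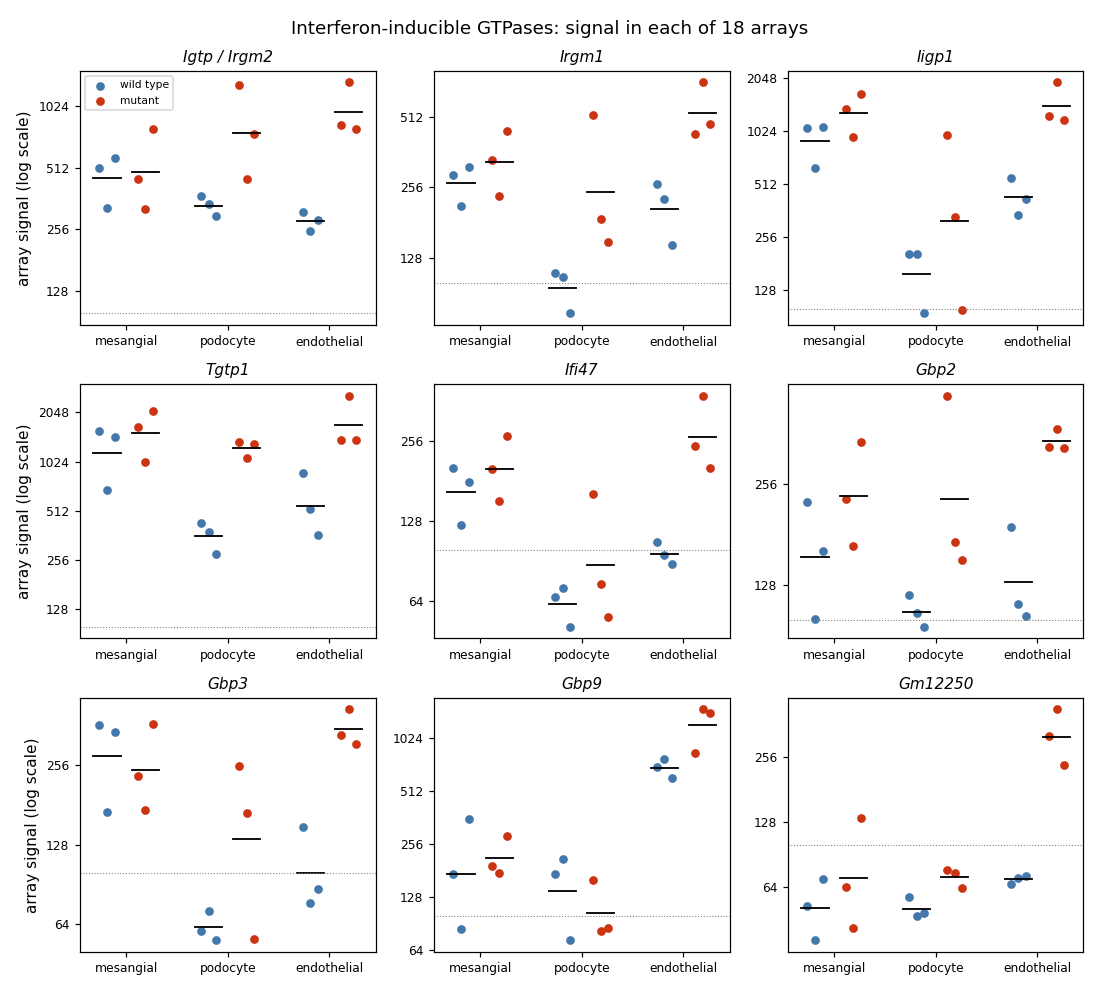
Array signal (log axis) of the 9 clusters in each of the 18 arrays, by cell type, with wild type in blue and mutant in red. Bars are geometric means of 3 arrays and the dotted line marks the minimum signal of 100. In endothelial cells all mutant points lie above all wild type points in every panel.

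The endothelial label fitted its markers: the 8 endothelial marker genes summed to 15671 to 17472 in the wild type and 17347 to 18197 in the mutant endothelial arrays, and none was called. Of the 8 mesangial marker genes 3 were tested in endothelial cells and 1, Serpine2, rose by the screen, with 467, 177 and 251 in mutant and 119, 95.4 and 131 in wild type cells, and its part in the rise was not tested. Markers of leukocytes, which carry these GTPases when activated, had low sums. Of the 8 macrophage and dendritic marker clusters, 4 reached 100 in mutant endothelial array A, 2 in B and 1 in C, against 0, 1 and 1 in the wild type arrays. The 4 tested all had positive log2 fold changes, with a median of 0.36. The 8 macrophage and dendritic marker clusters summed to 459 to 770.4 in mutant and 437 to 537 in wild type endothelial arrays, 0 of the 4 tested were called (0 at an unadjusted p under 0.05 in limma), and their part in the rise was not tested. The 12 T and NK cell marker clusters summed to 524 to 581 against 539.8 to 574. Of these only Gzma reached 100, at 106 in mutant array A. The 4 B cell marker clusters never reached a signal of 100 in any endothelial array. In such sorted pools, fewer expressing cells and less RNA per cell cannot be told apart.

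In podocytes 4 of the 9 clusters rose by the screen, where 1.26% of the 12113 clusters tested did, and 1 had an adjusted p under 0.05, against 0.0495% of all clusters. The lowest mutant array exceeded the highest wild type array in 4 of the 8 clusters tested, and in 6.97% of all clusters tested. The same held for Gm12250, at 77.4, 74.7 and 63.3 against 58.0, 47.4 and 48.6, which was not tested because all 6 values lay under 100. The median log2 fold change was 1.12 over the 8 clusters tested and -0.04 over all clusters tested. Without Ifi47 and Gbp3, whose wild type podocyte values all lay under 100, 4 of 6 clusters rose and the median was 1.15.

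Tgtp1 was the member past the adjusted threshold in podocytes. It had signals of 1351, 1079 and 1315 in the mutant and 429.96, 382 and 277 in the wild type podocyte arrays. All 3 mutant arrays were close to each other and far above the wild type, at a log2 fold change of 1.80 ± 0.19 (SE, limma adjusted p = 0.0412). This adjusted p reached 0.236 without wild type array B. It was also over 0.05 without mutant array B or C, without wild type array A or C, with array medians subtracted and with no signal minimum, while 2 members, Tgtp1 and Irgm1, passed in 1 fit of all 18 arrays. The regulatory IRGs rose by the screen alone. The cluster of Igtp and Irgm2 gave 1287, 451 and 748 against 371, 339 and 296 (log2 fold change 1.18 ± 0.34 SE, limma adjusted p = 0.213), and Irgm1 gave 521, 187 and 150.2 against 110.3, 106 and 74.2 (1.36 ± 0.44 SE, limma adjusted p = 0.240). Gbp2 likewise gave 470.3, 171 and 152 against 119, 106 and 95.7 (1.12 ± 0.40 SE, limma adjusted p = 0.278).

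For Igtp and Irgm2, Irgm1, Gbp2 and Iigp1, mutant podocyte array A stood far above arrays B and C, unlike for Tgtp1. Array A held the highest mutant podocyte value of all 9 clusters, and array C the lowest of 6. Iigp1 is the clearest case, with 981, 331 and 98.8 in the mutant arrays against 204.5, 204.4 and 94.1 in the wild type arrays, so that the groups overlapped (log2 fold change 1.01 ± 0.75 SE, limma adjusted p = 0.570). Gbp3, with 255, 168 and 55.9 against 60.0, 71.5 and 55.3, also overlapped and did not pass the screen. No size is given for it, because all its wild type values lay under 100. Ifi47 reached 162 in mutant array A and stayed between 51.4 and 74.2 in the other 5 podocyte arrays, and Gm12250 was again not tested. Ifi47 and Gbp3 thus entered the podocyte test only through mutant arrays. Gbp9 had 159.7, 81.2 and 85.1 in mutant against 171, 209 and 72.3 in wild type podocytes (log2 fold change -0.41 ± 0.42 SE, limma adjusted p = 0.692).

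Markers of the other glomerular cells moved with genotype in the podocyte arrays. The 8 endothelial marker genes summed to 4434 to 5877 in wild type and to 778 to 2668 in mutant podocytes, and all 8 were lower by the screen. The 8 mesangial marker genes summed to 5505 to 6789 in wild type and to 1154 to 4957 in mutant podocytes, with 4 of 8 lower. Mutant array A, high for the GTPases, held the highest mutant sum of both lists, and mutant array C the lowest, while the podocyte markers summed to 12488 to 14496 in mutant and 13500 to 15211 in wild type podocytes. Of the 8 macrophage and dendritic marker clusters 5 were tested and 1 rose by the screen, Csf1r, a macrophage growth factor receptor, with 134, 101 and 89.5 in mutant and 59.0, 77.9 and 73.1 in wild type podocytes. The macrophage and dendritic sum was 718, 538 and 561 in the mutant and 496, 771 and 577 in the wild type podocyte arrays, so that array A was the highest of the mutants but not of all 6. The part of these markers in the podocyte values, Gbp9 included, was not tested. Without mutant array C 7 clusters rose instead of 4, and without wild type array C only the cluster of Igtp and Irgm2 and that of Tgtp1 did, while Gbp9 was called lower (log2 fold change -0.87). Without mutant array A the count was 4.

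In mesangial cells 0 of the 9 clusters rose or fell by the screen, which called 2.08% of the 11457 clusters tested as higher. The count was also 0 at an adjusted p under 0.05, against 1.25% of all clusters, and 0 at an unadjusted p under 0.05 in limma. The genotypes did not overlap, with the mutant arrays higher, in 0 of the 9 and in 12.3% of all clusters tested. The log2 fold changes ran from -0.17 for Gbp3 to 0.61 for Gbp2, 8 of the 9 were positive, and their median was 0.29 against -0.02 over all clusters tested. Their 95% confidence intervals together spanned -1.05 to 1.51. The upper limit is that of Gm12250, which passed the minimum only through mutant array C, and without it the highest limit was 1.47, for Gbp9. The mesangial interval lay below the same cluster's endothelial value in 7 of the 9, as for Irgm1 (-0.30 to 0.89 against 1.37), and included it in 2, Gbp2 and Gbp9. The 7 include Gm12250, whose wild type signals lay under 100 in both cell types, and nothing is read from its interval. Setting a mesangial interval against an endothelial value leaves out the error of the endothelial value. The share of all clusters with such an interval was not counted, so the count of 7 is no result about a difference between cell types. In the direct comparison below, no member passed an adjusted p of 0.05 for endothelial minus mesangial.

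The 8 mesangial marker genes summed to 10626 to 11667 in mutant and 14088 to 15005 in wild type mesangial arrays. The mesangial signals of the GTPases were spread within both genotypes. Iigp1 had 1370.4, 955 and 1679 in the mutant and 1062, 630.3 and 1076 in the wild type mesangial arrays. Tgtp1 had 1667, 1021 and 2089.95 against 1577, 682 and 1456. In both genes the genotypes overlapped, and array B was the lowest of its group on both sides. That held for all 9 clusters in mutant array B and for all 9 in wild type array B, while mutant array C was the highest of its group in all 9. Gm12250 reached 134 in mutant array C and lay between 36.5 and 70.3 in the other 5 mesangial arrays.

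Wild type mesangial array C stood apart in its markers, with a podocyte marker sum of 3838 and an endothelial marker sum of 7776, where the other 5 mesangial arrays held at most 1079 and 2748. This array also had the highest mesangial sums of tubule markers (906, the others at most 391) and of T and NK cell markers (729, the others at most 570). Its macrophage and dendritic marker sum, 863, was the highest too, next to 815 in mutant array B. The part of these markers in the GTPase values was not tested. Without wild type array C the mesangial count was still 0. The count became 1 without mutant array B (Iigp1, log2 fold change 0.76) and 1 without wild type array A (Gbp2, 0.89).

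**Figure D3:**
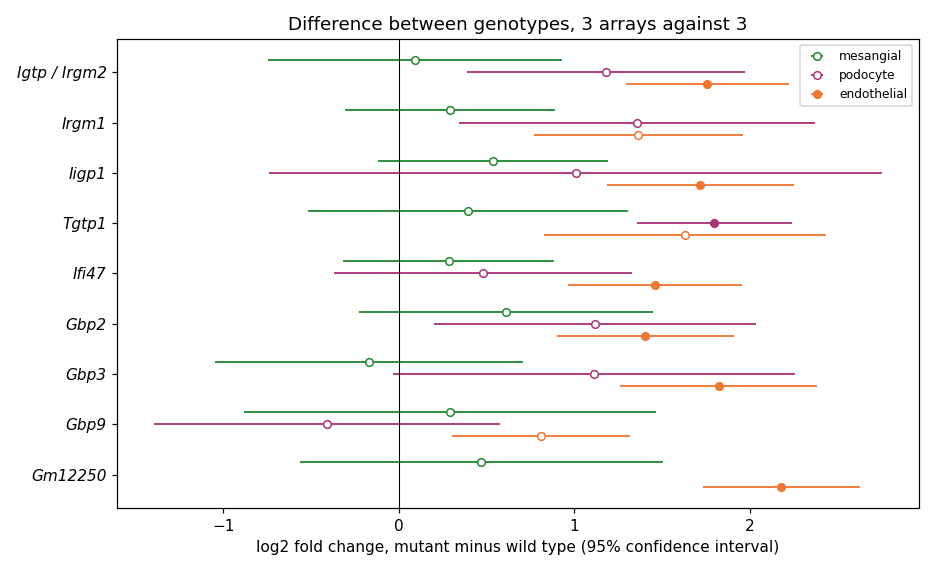
Log2 fold change, mutant minus wild type, of the 9 clusters in mesangial cells (green), podocytes (purple) and endothelial cells (orange), with 95% confidence intervals from 3 arrays against 3. Filled points have an adjusted p under 0.05, which holds for 6 endothelial and 1 podocyte value. Gm12250 was not tested in podocytes, and its endothelial and mesangial points are against wild type signals under 100. The podocyte points of Gbp3 and Ifi47 are also against wild type signals under 100.

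The genotype difference was then compared between cell types in 1 fit of all 18 arrays, on 13523 clusters. No member passed an adjusted p of 0.05 in any of the 3 comparisons, which called 0.717% of clusters for podocyte minus mesangial, 1.07% for endothelial minus mesangial and 2.11% for endothelial minus podocyte. At an unadjusted p under 0.05 in limma, the counts were 2, 5 and 1 of the 9 clusters. The share of all clusters at this unadjusted threshold was not counted, so these counts are no result about the members.

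The estimated endothelial difference exceeded the mesangial one in all 9 clusters, by a median of 1.18 on the log2 scale against 0.08 over all clusters. The 5 with an unadjusted p under 0.05 were Gm12250, which reached 100 in mutant arrays alone, the cluster of Igtp and Irgm2 (1.66 ± 0.50 SE, limma adjusted p = 0.126), Gbp3 (1.99 ± 0.63 SE, limma adjusted p = 0.144), Ifi47 and Tgtp1. The podocyte difference exceeded the mesangial one most clearly for Tgtp1 (1.40 ± 0.52 SE, limma adjusted p = 0.269). Between endothelial cells and podocytes the 1 cluster with an unadjusted p under 0.05 was Gm12250, whose signal lay under 100 in all 6 podocyte arrays and in the 3 wild type endothelial arrays, so no size is given. The difference for Irgm1 was 0.01 ± 0.54 (SE). Leaving out mutant mesangial array C or mutant podocyte array C brought 1 member past the adjusted threshold for endothelial minus mesangial. For endothelial minus podocyte, leaving out mutant mesangial array B or C brought 1 member past it, and leaving out mutant podocyte array A brought 2.

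Wild type levels were compared between the cell types, with the mesangial controls as marked above. The wild type podocyte arrays held mesangial marker sums of 5505 to 6789, against 14088 to 15005 in the wild type mesangial arrays. Their endothelial marker sums were 4434 to 5877, against 15671 to 17472 in the wild type endothelial arrays. The part of other cells in the podocyte levels and orders below was not tested. Podocytes had lower signals than mesangial cells in 5 of the 9 clusters, which passed an adjusted p of 0.05, where 23.1% of all clusters differed in either direction. They were Iigp1 (log2 difference -2.51 ± 0.57 SE, limma adjusted p = 0.00426), Tgtp1 (-1.70 ± 0.37 SE), Irgm1 (-1.49 ± 0.38 SE), Gbp3 and Ifi47. No size is given for Gbp3 and Ifi47, whose wild type podocyte signals, at 55.3 to 71.5 and 51.4 to 71.97, all lay under 100. Both stand in the count against podocyte values near background, and leaving them out keeps Iigp1, Tgtp1 and Irgm1. The cluster of Igtp and Irgm2, Gbp2, Gbp9 and Gm12250 did not differ beyond the threshold between podocytes and mesangial cells.

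Endothelial and mesangial wild type levels differed for 3 of the 9 clusters, a share near the 27.2% of all clusters, and so the count is no result about the members. Gbp3 (-1.48 ± 0.45 SE, limma adjusted p = 0.0215) and Tgtp1 (-1.08 ± 0.37 SE, limma adjusted p = 0.0387) were lower in endothelial cells. Gbp9 was higher there, with 697, 779.9 and 610.1 in endothelial cells and 173, 83.8 and 355 in mesangial cells (2.00 ± 0.46 SE, limma adjusted p = 0.0036). The highest of these mesangial values came from array C, the one with the high endothelial marker sum. The count of 3 fell to 1 without any 1 of wild type endothelial arrays B and C and wild type mesangial arrays A and C.

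Between endothelial cells and podocytes of the wild type, 2 of the 9 clusters differed, where 33.4% of all clusters did, and nothing is read from this count. Gbp9 was higher in endothelial cells by 2.33 ± 0.46 on the log2 scale (SE, limma adjusted p = 0.000883) and Irgm1 by 1.11 ± 0.38 (SE, limma adjusted p = 0.0342). The count was 1 without wild type endothelial array A or B, and 1 without wild type podocyte array B or C. For 6 clusters (Irgm1, Iigp1, Tgtp1, Ifi47, Gbp2 and Gbp3) the order of the fitted wild type levels was mesangial, endothelial and podocyte, from high to low, for Gbp9 it was endothelial, mesangial and podocyte, and for the cluster of Igtp and Irgm2 it was mesangial, podocyte and endothelial. No order is given for Gm12250, whose 9 wild type values lay under 100. Among the 6, neighbours in this order differed beyond the threshold only for Tgtp1 and Gbp3 (mesangial and endothelial) and for Irgm1 (endothelial and podocyte). For Gbp9 the mesangial and podocyte levels did not differ beyond it, and Gbp2 and the cluster of Igtp and Irgm2 passed in none of the 3 comparisons.

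The members rose and fell together from array to array. Over the 18 arrays, the Pearson r between pairs of the 9 clusters had a median of 0.74 over 36 pairs, from 0.26 to 0.96. After each group's mean had been subtracted, the median was 0.67 and the range 0.44 to 0.93. These correlations are descriptions over arrays that share normalization, tissue and group. The mean deviation of the 9 clusters from their 18-array mean was 1.06, 1.66 and 1.06 on the log2 scale in the mutant endothelial arrays. In the wild type endothelial arrays it was -0.01, -0.41 and -0.53. Mutant podocyte array A, at 0.57, exceeded its 2 companions, at -0.44 and -0.81. The wild type mesangial arrays A and C, at 0.30 and 0.39, lay above mutant mesangial array B, at -0.15.

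**Figure D4:**
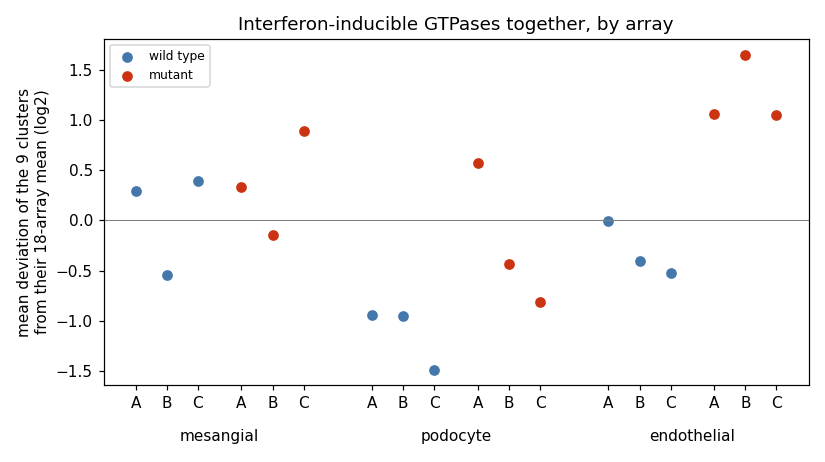
Mean deviation of the 9 clusters from their mean over the 18 arrays (log2 units), for each array, with wild type in blue and mutant in red. The mutant endothelial arrays lie between 1.06 and 1.66, and the mesangial genotypes overlap.

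Outside the interferon-inducible GTPases, the clusters whose log2 signal followed the members' mean most closely over the 18 arrays were, among 12580 with a symbol and a median r of 0.10, Stat2 (r = 0.96), Psmb8 (0.92), Irf7 (0.92), Irf9 (0.91), Ddx58 (0.90), Oasl2 (0.90), the cluster of Mitd1 and Lipt1 (0.88), Psme1 (0.88), Isg15 (0.88) and Xaf1 (0.88). Stat2 and Irf9 encode subunits of the complex that binds ISREs, Irf7 a transcription factor that amplifies interferon production, Psmb8 and Psme1 parts of the immunoproteasome and its activator, and Ddx58 the RNA sensor RIG-I. Irf1, a transcription factor that activates GTPase genes, stood at rank 35 (r = 0.82).

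The other interferon-inducible GTPases on the array, a list of 20 genes of which 13 clusters were not among the members' own, went the same way in endothelial cells. There 8 of the 13 were higher by the screen and 10 were tested. Of the 8, Gbp5, Mx2 and Gm4841 lay under 100 in all wild type endothelial arrays and entered the test only through mutant arrays. Without them 5 of the 7 tested rose, with a median log2 fold change of 1.21 over the 7. The GBPs Gbp4 (1.65 ± 0.29 SE, limma adjusted p = 0.0400) and Gbp6 (1.44 ± 0.22 SE, limma adjusted p = 0.0213) were among those that rose. Gbp5 had 140.4, 219 and 154 in mutant and 78.6, 48.6 and 58.2 in wild type endothelial cells. Mx2, an antiviral dynamin-like GTPase, had 60.9 to 71.3 in wild type and 151 to 232 in mutant endothelial cells, and Gm4841 had 63.8 to 75.7 and 93.3 to 122. In podocytes 1 of the 13 was higher by the screen, Gm4841, which reached 100 in mutant array A alone, at 100.9, and the median over the 8 tested was 0.09. In mesangial cells 0 rose by the screen in limma, with 1 at an unadjusted p under 0.05, a cluster that was lower.

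Upstream of the members, the type II interferon signalling list holds 15 genes, of which 12 were tested in each cell type. Interferon gamma itself, Ifng, was at 59.0 to 80.2 in all 18 arrays, under the minimum of 100. In endothelial cells Irf1 rose by the screen (0.60 ± 0.14 SE, limma adjusted p = 0.0923), and 0 of the 15 fell.

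The receptor chains Ifngr1 (0.21 ± 0.10 SE, limma adjusted p = 0.310) and Ifngr2 (0.09 ± 0.15 SE, limma adjusted p = 0.761) and the kinase Jak1 (0.20 ± 0.09 SE, limma adjusted p = 0.298) did not pass in endothelial cells. In podocytes Ifngr1, the ligand-binding chain, fell by 0.94 on the log2 scale (SE 0.12, limma adjusted p = 0.1000). In mesangial cells Ifngr1 (0.60 ± 0.11 SE, limma adjusted p = 0.0404) and Irf8, an interferon regulatory factor, were higher by the screen. Irf8 passed the minimum only through mutant mesangial array B, with 81.5, 143 and 71.99 in mutant and 52.1, 60.5 and 70.1 in wild type cells. That array also had the highest macrophage and dendritic marker sum of the mutant mesangial arrays, 815 against 478 and 424. Wild type mesangial array C had a higher sum, 863, with Irf8 at 70.1. The part of these markers in the Irf8 values was not tested.

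The type I interferon list of 22 genes rose in endothelial cells with the GTPases. There 16 of the 22 rose by the screen, 15 had an adjusted p under 0.05, and the median log2 fold change over the 19 tested was 1.17. Irf7 had 82.1 to 88.3 in wild type and 440.4 to 522 in mutant endothelial cells, and passed the minimum through its mutant arrays alone. Without it 15 of the 18 tested rose, 14 had an adjusted p under 0.05, and the median was 1.12. Isg15, a ubiquitin-like antiviral protein, rose by 1.66 ± 0.11 (SE, limma adjusted p = 0.000973), and Stat2 by 1.07 ± 0.15 (SE, limma adjusted p = 0.0149). Ifnb1, which encodes interferon beta, stayed between 27.3 and 33.9 in all 18 arrays. In podocytes and in mesangial cells 0 of the 22 rose or fell by the screen in limma, and 0 had an unadjusted p under 0.05. The autophagy conjugation list of 13 genes, whose products help to direct GTPases to membranes, had 0 calls by the screen in all 3 cell types, with 3, 1 and 0 at an unadjusted p under 0.05 in endothelial cells, podocytes and mesangial cells.

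**Figure D5:**
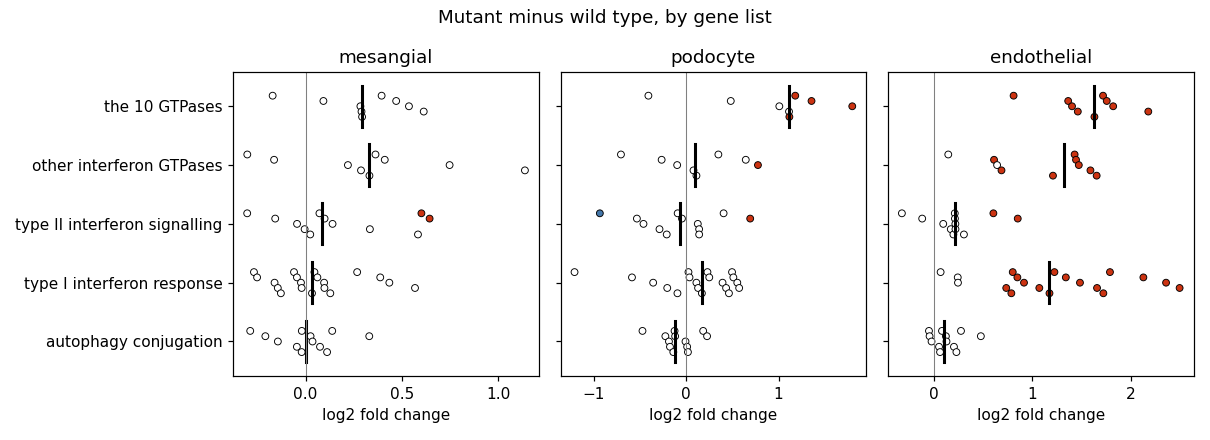
Log2 fold change, mutant minus wild type, of each tested cluster in 5 gene lists, by cell type. Red points rose and blue points fell by the screen, open points did not pass, and the vertical bars are list medians. In endothelial cells all 9 member clusters, 8 other interferon GTPase clusters and 16 type I interferon clusters are red.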

How the data were processed

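RNA of FACS purified cells was amplified (Nugen Ovation Pico V2) and hybridised to Affymetrix Mouse Gene 1.0 ST arrays, per the study's methods; the series text names another array and program. The authors deposited RMA values (background correction, quantile normalization, probe summary) as linear intensity; 18 further columns, named as normalized, were not used here. Columns were assigned to groups by name. Array medians lay between 62.8 and 71.6, and r between arrays of a group between 0.967 and 0.992; the number of arrays limits the precision. The log2 intensity was fitted with limma 3.58.1 in R 4.3.3, per cell type, on clusters that reached 100 in 1 or more of 6 arrays, and for differences between cell types on all 18 arrays. Calls used the study's screen (p under 0.05, fold change over 1.5) and Benjamini-Hochberg adjusted p over all clusters tested. The scripts were tested on simulated data. Named genes were the members, list genes by role, and the 10 clusters most like the members' mean. Some list genes are not reported here. Members and lists were chosen with earlier results of these data known. Other filters, normalizations, fits and arrays left out were tried as alternatives.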

Additional observations from a re-analysis of the deposited data

How the results depend on the processing

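All 117 alternative log2 fold changes of the members in endothelial cells were positive, over other signal minimums, 1 fit of all 18 arrays, a trended robust fit, array medians subtracted, quantile normalization again and each array left out, and the count called was 8 or 9 in each of these; by adjusted p under 0.05 it was 6, 4 in 1 fit of all 18 arrays, 2 with no signal minimum, and 2 to 8 with 1 array left out. In podocytes 87 of 99 were positive, the other 12 being all of Gbp9's. The podocyte count of 4 was 1 by adjusted p with a fold change over 1.5 and 2 of 6 with single-symbol clusters only, and ranged from 2 to 7 with 1 array left out. In mesangial cells the count of 0 ranged from 0 to 1 with 1 array left out. Of the differences between cell types, endothelial minus mesangial ranged from 0 to 1 members and endothelial minus podocyte from 0 to 2 with 1 array left out, and endothelial minus podocyte was 1 with array medians subtracted. Wild type endothelial minus mesangial ranged from 1 to 3 and wild type endothelial minus podocyte from 1 to 2 with 1 array left out, and the second was 1 with no signal minimum. The causes were not tested. No called value changed sign. The 7 promoter windows with a match were also 7 in the 250 bases before the start alone. No paired analysis was possible because the replicate numbers in the labels are unique to each sample and the columns carry none. Signals under 100 are near background and limit Gm12250, Ifi47 and Gbp3 in podocytes and Gm12250, Gbp5, Mx2, Gm4841 and Irf7 in wild type endothelial cells.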
